A study of Schizosaccharomyces pombe with 3 samples.

Results

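Med7 is a subunit of the middle module of Mediator, the large complex that passes signals from DNA-bound transcription factors to RNA polymerase II (Pol II). Mediator is recruited upstream of genes, meets Pol II and the general transcription factors at the core promoter, and is known in yeasts as a coactivator of most Pol II transcription. Chromatin immunoprecipitation of a Mediator subunit is therefore usually read as reads above a control upstream of transcript starts. Here the Med7 library was set against a control without antibody, promoter by promoter, and promoters were compared only with promoters of the same base composition.

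The study holds 3 libraries from fission yeast, Schizosaccharomyces pombe, of strain 972 h-, all grown in YEA with 2% glucose to log phase. The Med7 ChIP library came from cells labelled as having a TAP tag, an affinity tag whose protein A part binds IgG, and was precipitated with IgG Sepharose beads. The Pol II ChIP library came from cells without the tag and used antibody 4H8 to the C-terminal domain of Pol II. The bead control came from cells without the tag and used no antibody. The control therefore had no tag and no IgG beads, and signal from the beads or the tag alone cannot be told apart from signal of Med7. Each group has 1 library, so no difference below has a replicate check and no p-value is given. Intervals are 95% counting intervals of a ratio of reads and cover counting error only, since reads copied by PCR and counted without molecular tags are not separate molecules.

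Of 5113 protein-coding genes, 5112 had a whole window, reaching 500 bp upstream and 100 bp downstream of where the transcript begins, inside their chromosome. The 4944 windows that held at least 20 reads in the Med7 and control libraries together, and whose positions were at least 90% unique, were measured, and 168 were not. The median of a measured window was 38 reads for Med7, 49 for Pol II and 25 for the bead control. Reads were scaled to RPM by the nuclear reads outside the ribosomal DNA, which numbered 696101 for Med7, 1687058 for Pol II and 630825 for the bead control. At these depths the fold of a single promoter is imprecise, and counts over many promoters are far better determined than the rank of any one. The tag itself cannot be seen in these reads. The window of med7 (SPBC14F5.08) held 46 Med7 reads and 27 control reads, which is 1.01 (0.61 to 1.68) times the fold of promoters of its GC content.

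Promoters are AT-rich in this genome, and the Med7 to control ratio followed base composition. SPBPB7E8.02 (a PSP1 family protein gene on chromosome II) and SPAC1B1.02C (an NAD/NADH kinase gene on chromosome I) show the span. The 150 bases before their transcript starts are printed 5′ to 3′ from the reference genome ASM294v3, with every G and C in capitals, because this composition set how a fold was read.
SPBPB7E8.02 (chrII:3498247-3498396, plus strand): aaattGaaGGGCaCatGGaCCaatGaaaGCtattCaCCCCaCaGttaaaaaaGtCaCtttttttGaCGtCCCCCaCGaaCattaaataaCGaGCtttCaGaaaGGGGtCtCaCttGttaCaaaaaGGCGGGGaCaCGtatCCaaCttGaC
SPAC1B1.02C (chrI:3540947-3541096, minus strand): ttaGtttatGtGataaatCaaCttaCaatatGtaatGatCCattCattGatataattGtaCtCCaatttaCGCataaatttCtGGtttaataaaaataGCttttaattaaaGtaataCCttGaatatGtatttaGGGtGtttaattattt
The stretch of SPBPB7E8.02 held 42.7% G and C and that of SPAC1B1.02C 22.0%. The whole windows held 41.5% and 25.3%. SPBPB7E8.02 had 33 Med7 reads and 8 control reads, a fold of 3.74, where promoters of its GC class stood at 1.09. SPAC1B1.02C had 47 Med7 reads and 21 control reads, a fold of 2.03, where its class stood at 1.68. Both folds passed 2 as they stood, but SPBPB7E8.02 was 3.44 (1.56 to 8.62) times its class and SPAC1B1.02C was 1.21 (0.71 to 2.12) times its class.

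Over all measured promoters the pooled fold, Med7 RPM over control RPM, was 1.36 (1.35 to 1.37). In classes 2 percentage points of GC wide it was 1.68 (1.57 to 1.80) in the 55 windows under 26% GC, 1.41 (1.39 to 1.43) at 30 to 32%, 1.28 (1.26 to 1.30) at 34 to 36% and 1.09 (1.03 to 1.15) at 40 to 42%. Under 26% GC a window held a mean of 41.4 Med7 reads and 22.3 control reads, and at 30 to 32% it held 41.2 and 26.4, so that this step lay in the control. Above it the Med7 reads differed more. A promoter window averaged 59.2 RPM in the Med7 library at 30 to 32% GC and 41.9 RPM at 40 to 42%, while the bead control averaged 41.9 RPM and 38.6 RPM. Coding sequence also held fewer Med7 reads at higher GC. The mean there was 54.2 RPM at 32 to 34% GC, 44.0 RPM at 38 to 40% and 32.5 RPM at 48 to 50%, against 53.2, 54.4 and 59.6 RPM in the control. The part of base composition in any single fold was not tested, but each promoter's fold was divided by the pooled fold of its GC class. The result is called the fold at equal GC below, and 1 means the level of an average promoter of that composition, not the absence of Med7.

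**Figure D1:**
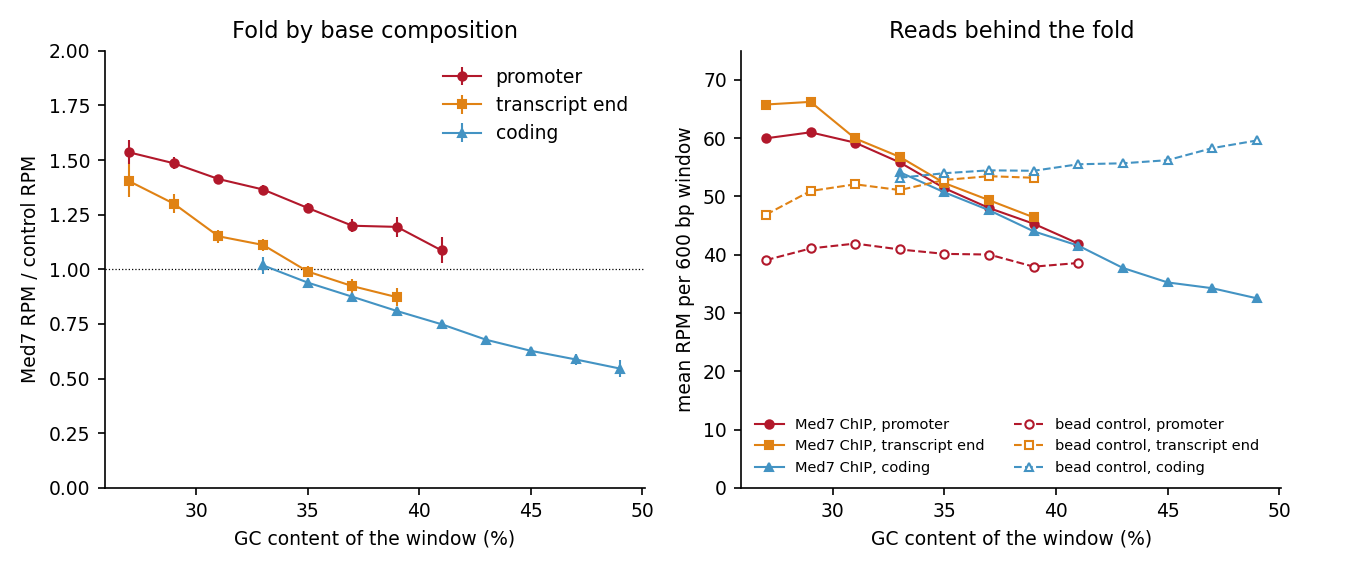
Left, Med7 RPM over control RPM (y axis, pooled, with 95% counting intervals) in windows of 600 bp by their GC content in percent (x axis), for promoter, transcript end and coding windows. Right, the mean RPM per window in the Med7 ChIP (solid) and the bead control (dashed). At equal GC the Med7 reads of the 3 kinds of window lie close together, at 54.2 to 56.8 RPM in the class of 32 to 34%, whereas promoter windows hold the fewest control reads, 40.9 RPM there.

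At equal GC promoters had a higher fold than coding sequence, and the 2 kinds of window differed more in control reads than in Med7 reads. In all, 5 GC classes from 32 to 42% held at least 50 windows of both kinds, 2653 promoters and 4204 coding windows that touch no promoter or transcript end window. Averaged over these classes, the fold in promoters was 1.37 (1.34 to 1.39) times that in coding windows. Med7 RPM alone was 1.02 times the coding level, Pol II RPM 0.898 times, and control RPM 0.748 times. Against windows around 1607 transcript ends, in 7 GC classes with 4716 promoters, the fold in promoters was 1.23 (1.21 to 1.25) times that at ends. Again Med7 RPM alone was close to the ends, at 0.971 times, with Pol II RPM at 0.572 times and control RPM at 0.789 times.

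Placed along the gene in windows of 150 bp, the libraries parted just upstream of the transcript start. Centred 100 bp upstream, over the 4364 genes whose window had coding windows of its GC, Med7 reads were 1.03 times the level of coding windows of equal GC, Pol II reads 0.682 times and control reads 0.631 times. Over all genes the Med7 library stayed between 0.989 and 1.07 times the coding level at every position from 1000 bp upstream to 1000 bp downstream. The dip that Pol II and the control share was thus not seen in the Med7 library. At this position the Med7 to control fold was 1.63 times that of coding windows. Among 470 genes of the top decile of Pol II reads per kb of gene body, control reads were lower still, at 0.491 times the coding level, with Med7 reads at 1.02 times and Pol II reads at 1.07 times, which gave a fold 2.08 times that of coding windows. In the bodies of these genes, 700 bp downstream, Pol II reads were 2.92 times the coding level, Med7 reads 1.08 times and control reads 1.12 times.

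**Figure D2:**
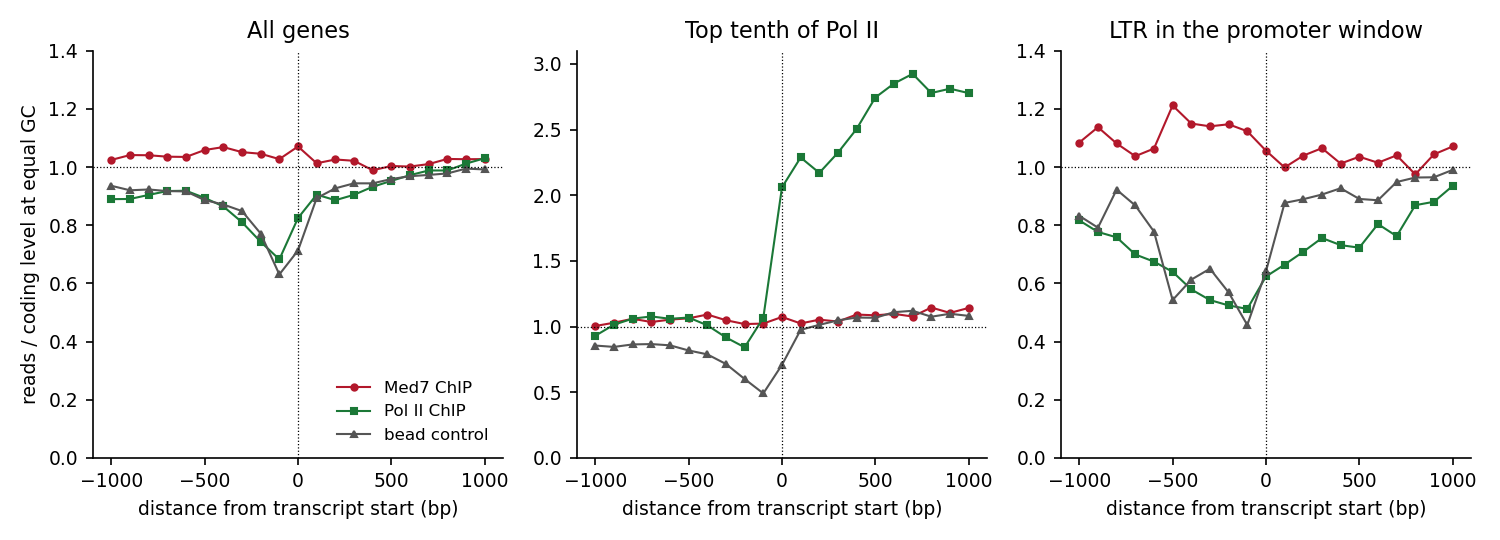
Reads of the Med7 ChIP, the Pol II ChIP and the bead control (y axis, relative to 150 bp coding windows of equal GC) by distance from the transcript start in bp (x axis), for all genes, for the top decile of genes by Pol II and for genes with a long terminal repeat (LTR) in the promoter window; the middle panel has a longer y axis. At 100 bp upstream Med7 reads are at 1.03 (all genes), 1.02 (top decile) and 1.12 (LTR) where the control dips to 0.631, 0.491 and 0.457.

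Counted promoter by promoter, 698 of 4944 windows (14.1%) were high by the fold as it stands, meaning a fold of at least 2 whose interval lies above 1, and 13 (0.263%) were low, meaning at most 0.5 with the interval below 1. At equal GC, with the same thresholds, 156 (3.16%) were high and 80 (1.62%) low. Because the pooled fold of every GC class was above 1, all 156 were necessarily also among the 698. The SD of the log2 fold at equal GC over promoters was 0.49, against 0.38 for the counting error of these reads, and over coding windows, each set against coding windows of its own GC, 0.44 against 0.37. Among those coding windows 65 of 5501 (1.18%) were high and 89 (1.62%) low by the same rule.

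The reads behind the 156 high windows describe how they came to be called. Summed over them, Med7 reads were 1.20 times the mean of their GC classes and control reads 0.501 times. In 127 of the 156 the Med7 reads were above the class mean, but in 17 they reached 1.5 times it. No high window had control reads above the class mean, and 75 had at most 0.5 times it. In the 80 low windows Med7 reads summed to 0.614 times the class mean and control reads to 1.39 times. Of the high windows, 62 overlapped the window of another gene, so that 1 stretch of DNA can carry 2 calls.

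**Figure D3:**
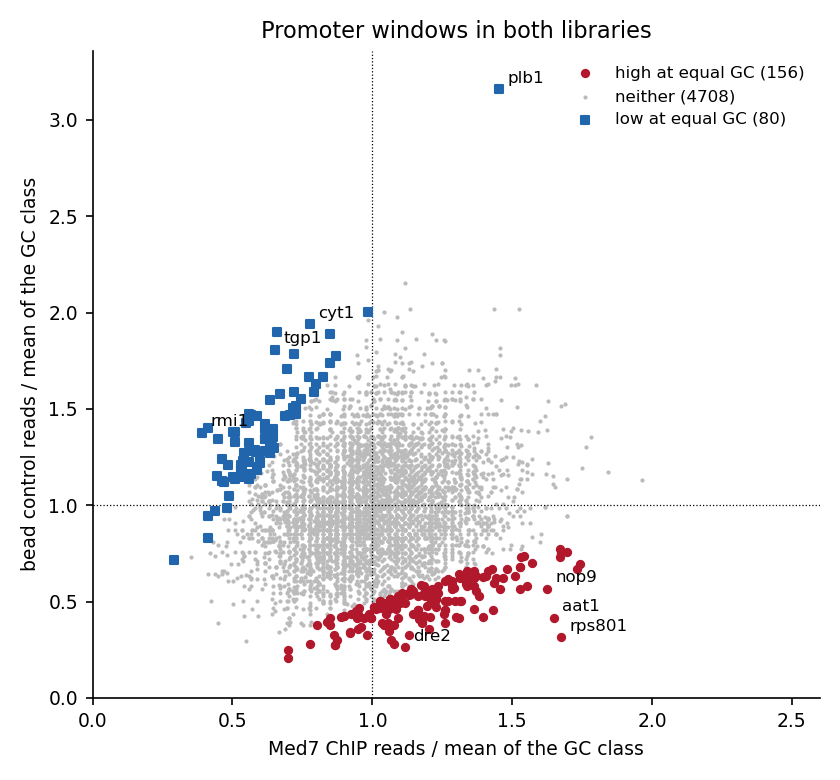
Each point is 1 of 4944 promoter windows, with its Med7 ChIP reads on the x axis and its bead control reads on the y axis, both divided by the mean of windows of the same GC class. The 156 high windows lie along the lower edge of the cloud, with all control values under 1. The 80 low windows lie along its upper left edge, apart from plb1, which has many reads in both libraries.

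Reads on the plus and minus strands are separate reads of the same 2 libraries and gave a check of the calls within them. Of windows called high on plus strand reads alone, 180 in all, the minus strand reads gave a pooled fold at equal GC of 1.24 (1.17 to 1.31), with 69.4% of the windows above 1, and 15 of the 180 were also high there. The 162 windows high on minus strand reads had 1.22 (1.15 to 1.30) on the plus strand, with 15 also high there. Windows called low on the plus strand, 205 in all, had 0.878 (0.836 to 0.922) on the minus strand, with 37.6% above 1 and 10 also low there. Beside these overlaps, the minus strand reads called 162 high and 141 low of all 4944 windows. Across the 4944 windows Pearson's r between the log2 folds of the strands was 0.20, as a description of windows that share libraries and depth. The pooled folds on the other strand lay on the same side of 1 as the calls and nearer to 1 than the thresholds, and most calls were not made again there.

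For 3 of the high promoters the bases before the transcript start are shown, since they hold elements known to act in fission yeast promoters. Capitals mark the HomolD box CAGTCACA in rps801, the TATA box letters TATAAA in aat1 and the CRE letters TGACGTCA, the site of Atf1 and Pcr1, in atf1. All are 150 bases of ASM294v3, printed 5′ to 3′ on the strand of the gene.
rps801 (chrI:4287433-4287582, minus strand): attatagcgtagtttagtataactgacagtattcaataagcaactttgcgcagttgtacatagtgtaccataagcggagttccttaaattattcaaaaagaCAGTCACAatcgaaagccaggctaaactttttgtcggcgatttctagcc
aat1 (chrII:113366-113515, minus strand): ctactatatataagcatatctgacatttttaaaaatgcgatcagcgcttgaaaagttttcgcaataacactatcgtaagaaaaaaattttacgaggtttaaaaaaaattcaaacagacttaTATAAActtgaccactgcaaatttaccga
atf1 (chrII:1546067-1546216, plus strand): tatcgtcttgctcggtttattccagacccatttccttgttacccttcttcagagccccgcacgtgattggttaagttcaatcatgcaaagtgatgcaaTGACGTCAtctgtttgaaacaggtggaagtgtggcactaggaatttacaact
The HomolD box lay 49 to 42 bp before the start of rps801, the TATA letters 29 to 24 bp before that of aat1 and the CRE 52 to 45 bp before that of atf1. No protein-coding transcript overlapped these stretches.

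The promoter of rps801 (SPAC2C4.16C, for ribosomal protein eS8 of the small subunit, window chrI:4287333-4287932) had the highest lower bound of the fold at equal GC. It held 56 Med7 reads and 8 control reads, 5.29 (2.51 to 12.8) times the fold of its GC class. Its Med7 reads were 1.68 times the class mean, and its control reads 0.317 times. An LTR of a retrotransposon covered 358 of its 600 bases.

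The gene of a permease for amino acids, aat1 (SPBC359.03C, window chrII:113266-113865) came second. It held 68 Med7 reads and 11 control reads, 3.96 (2.08 to 8.31) times the fold of its class. The Med7 reads were on both strands, 28 on the plus and 40 on the minus strand, against 5 and 6 in the control. The nearest upstream protein-coding gene lay 4526 bp away.

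Next came dre2, an anamorsin family gene whose budding yeast counterpart acts in iron-sulfur cluster assembly, with 46 Med7 reads and 7 control reads and a fold at equal GC of 4.21 (1.89 to 11.1). Its window overlaps that of the divergent gene SPBC337.11. The Med7 reads of dre2 were 1.12 times the class mean, while its control reads were 0.265 times. The regulatory protein gene ntu1 had 36 Med7 reads and 7 control reads, at 3.89 (1.71 to 10.3). Here too the Med7 reads were near the class mean, at 1.08 times.

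Others among the 15 followed. nak1, for a PAK-like kinase of cell polarity, had 59 Med7 reads and 12 control reads, at 3.15 (1.68 to 6.45). pdc101, for a pyruvate decarboxylase of fermentation, had 44 Med7 reads, 105 Pol II reads and 10 control reads, at 3.34 (1.66 to 7.44). mae2, listed as malate dehydrogenase, had 41 Med7 reads, 124 Pol II reads and 10 control reads, at 3.11 (1.53 to 6.97). The windows of pdc101 and mae2 thus held more Pol II reads than the median window. ofd1, for the dioxygenase that controls the sterol-responsive factor Sre1, had 43 Med7 reads and 9 control reads, at 3.38 (1.63 to 7.89). The metallopeptidase gene sdd3, the uncharacterized SPAC11D3.16C, mrpl50 of the mitochondrial ribosome, nop9 of ribosome assembly, SPBPB7E8.02, sec24 of the vesicle coat and sec66 of protein import into the endoplasmic reticulum complete the 15, of which 6 overlap the window of another gene. Across these 15 windows there were 33 to 68 Med7 reads and 7 to 15 control reads. All 15 had Med7 reads above their class mean, at 1.07 to 1.68 times, and control reads at 0.265 to 0.579 times. Their intervals overlap, so the order among them is not determined.

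At the other end, the 10 promoters with the lowest upper bound held 10 to 52 Med7 reads and 28 to 80 control reads, with folds at equal GC of 0.285 to 0.460. SPAC186.07C, for a hydroxyacid dehydrogenase, had 17 Med7 reads and 37 control reads, at 0.29 (0.16 to 0.54). rmi1, for a genome stability protein, had 10 Med7 reads and 28 control reads, at 0.29 (0.12 to 0.60), in a GC-rich window (44.3%) that overlaps that of rpl2002. tgp1, for a transporter of glycerophosphodiesters that is repressed by phosphate, had 19 Med7 reads and 44 control reads, at 0.36 (0.20 to 0.63). In each of these 3 windows the control reads were above their class mean. cyt1, for cytochrome c1, had 26 Med7 reads and 49 control reads, at 0.40 (0.24 to 0.66). The lysophospholipase gene plb1 stood apart: it held 52 Med7 reads, 2682 Pol II reads and 80 control reads, so that its Med7 reads were 1.45 times and its control reads 3.16 times their class means. The other low windows among the 10 were those of SPAC4F10.17, pac2, meu6, nup85 and SPCP31B10.02.

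Division by the GC class mattered most at the AT-rich end. SPAC1B1.02C, SPAC2C4.08, tgs1, brr6 and rad26, all at 24.7 to 25.5% GC, lost most by it, and of these rad26, for a subunit of the ATR checkpoint kinase complex, stayed high at 2.16 (1.10 to 4.63), from 44 Med7 reads and 11 control reads. SPBPB7E8.02, SPAC683.03, nep2, SPAC56F8.15 and anc1, at 40.0 to 42.0% GC, lost least. Of these nep2, for a NEDD8 protease, was no longer high, at 1.93 (0.97 to 4.02), from 30 Med7 reads and 13 control reads. Chosen after their values were seen, the windows with the most Med7 reads over their class were SPCC594.03, mis16, SPCC417.12, tgs1 and vps52, at 1.75 to 1.96 times the class mean. Their control reads were also above the mean, at 1.13 to 1.36 times, and none of the 5 was high.

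Promoters that hold a long terminal repeat had higher folds than the rest. Such repeats are the direct repeats at the ends of Tf retrotransposons, mostly left behind as solo copies, and Tf elements are known to insert upstream of Pol II genes. This grouping was made after seeing that rps801 and nop9 hold one. In 99 measured windows with LTR bases, 23 (23.2%) were high, against 133 of 4845 (2.75%) without. The pooled fold at equal GC was 1.38 (1.31 to 1.46) with an LTR and 0.994 (0.987 to 1.00) without, and 78 of the 99 were above 1. None of the 99 was low. Med7 reads were 1.06 times the class mean in windows with an LTR, Pol II reads 0.684 times and control reads 0.770 times.

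Windows in which LTRs covered at least 300 bases stood higher than those with less. Among the 52 with more, 17 were high and the pooled fold at equal GC was 1.54 (1.43 to 1.66), with Med7 reads at 1.11 times and control reads at 0.723 times the class mean. Among the 47 with less, 6 were high and the fold was 1.22 (1.13 to 1.32). Unique positions made up a mean of 99.0% of the windows with an LTR and 99.9% of those without. Taken as elements, 108 of 238 annotated LTRs were unique enough to measure and had a raw fold of 2.03 (1.89 to 2.18). The 31 of these that touch no protein-coding promoter window had a raw fold of 1.74 (1.53 to 1.98), at 110 RPM per kb in the Med7 library and 63.3 RPM per kb in the control. These element folds were not taken at equal GC. The mean GC of the elements was 31.9% and 32.1%, and promoters at 30 to 32% and 32 to 34% stood at raw folds of 1.41 and 1.37.

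Several LTRs in high windows share sequence, printed here for 5 of them as the first 100 bases of the element on its own strand, from ASM294v3, because the same kind of sequence recurs at unrelated genes. Capitals mark ACTATATGTCA, the run of 11 bases found in the most LTRs within their first 100 bases (118 of 238).
LTR upstream of rps801 (chrI:4287575-4287674, plus strand): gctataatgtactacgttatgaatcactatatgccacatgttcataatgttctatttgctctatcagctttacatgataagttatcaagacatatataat
LTR upstream of nop9 (chrI:3245333-3245432, plus strand): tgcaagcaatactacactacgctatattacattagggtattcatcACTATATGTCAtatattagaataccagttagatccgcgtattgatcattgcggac
LTR upstream of mug51 (chrI:4716050-4716149, minus strand): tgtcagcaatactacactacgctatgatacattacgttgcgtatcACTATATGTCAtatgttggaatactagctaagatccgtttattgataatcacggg
LTR upstream of cct6 (chrII:942476-942575, plus strand): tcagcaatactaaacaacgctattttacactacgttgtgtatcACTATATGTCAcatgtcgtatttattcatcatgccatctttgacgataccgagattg
LTR upstream of erg10 (chrII:4047404-4047503, plus strand): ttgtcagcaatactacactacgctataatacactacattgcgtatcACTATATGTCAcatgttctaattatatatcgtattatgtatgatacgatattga
The run was picked from the LTR sequences alone. It occurred on either strand in 24 of the 99 windows with an LTR and in 4 of the 4845 others, 0.566% of all windows together. This difference follows from the choice of the run out of LTR sequences. Whether the run goes with Med7 reads or with high calls was not tested. The LTR of rps801 did not hold the run letter for letter. The 5 elements printed were chosen after their values were seen, and how many of the 23 high windows with an LTR hold the run was not counted.

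The genes downstream of these LTRs serve different tasks. nop9 (67 Med7 reads, 15 control reads, 2.86 at equal GC, 1.62 to 5.40) encodes a ribosome assembly factor. atx1, a copper chaperone gene, had 45 Med7 reads and 9 control reads, at 3.05 (1.47 to 7.10). pkl1, for a minus-end kinesin, had 45 Med7 reads and 11 control reads, at 2.62 (1.34 to 5.62). In nop9 the LTR covered 351 bases of the window, and in pkl1 187 bases. erg10, for an acetyl-CoA acetyltransferase at the start of sterol synthesis, had 55 Med7 reads and 17 control reads, at 2.15 (1.23 to 3.95). The flocculin gene pfl4 had 54 Med7 reads and 14 control reads, at 2.28 (1.25 to 4.44). Of the 23 high windows with an LTR, lsm6 and sec67, mrpl33 and tif6, and SPAC30D11.02C and ddx27 are divergent neighbours that share 1 LTR per pair.

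Genes were put in deciles by Pol II reads per kb of gene body, without division by the control. The fold at equal GC was 1.14 (1.11 to 1.18) times as high in the highest as in the lowest decile. It stood at 0.946 (0.925 to 0.967) in the lowest decile, 0.993 (0.971 to 1.02) in the fifth, 1.03 (1.01 to 1.05) in the eighth and 1.08 (1.06 to 1.11) in the highest, over 494 or 495 genes each. From the lowest to the highest decile, high windows numbered 14, 8, 8, 13, 15, 11, 19, 15, 26 and 27. Low windows numbered 19, 13, 5, 4, 6, 7, 7, 6, 7 and 6 in the same order. Of all 4944 windows, 156 (3.16%) were high and 80 (1.62%) low. Median Pol II levels were 36.8, 58.4 and 213 RPM per kb in deciles 1, 5 and 10. Coding windows of 600 bp averaged 56.9 RPM in the Pol II library and 55.0 RPM in the bead control. How far the lower deciles rank the activity of genes above the level without antibody was not tested. The Med7 reads alone were 0.990 times the class mean in the lowest decile and 1.01 times in the highest, and the control reads 1.05 times and 0.937 times. The order of the deciles is a description of genes, which are not replicates, and Med7 reads did not follow Pol II over this range beyond 0.985 to 1.02 times the class mean.

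**Figure D4:**
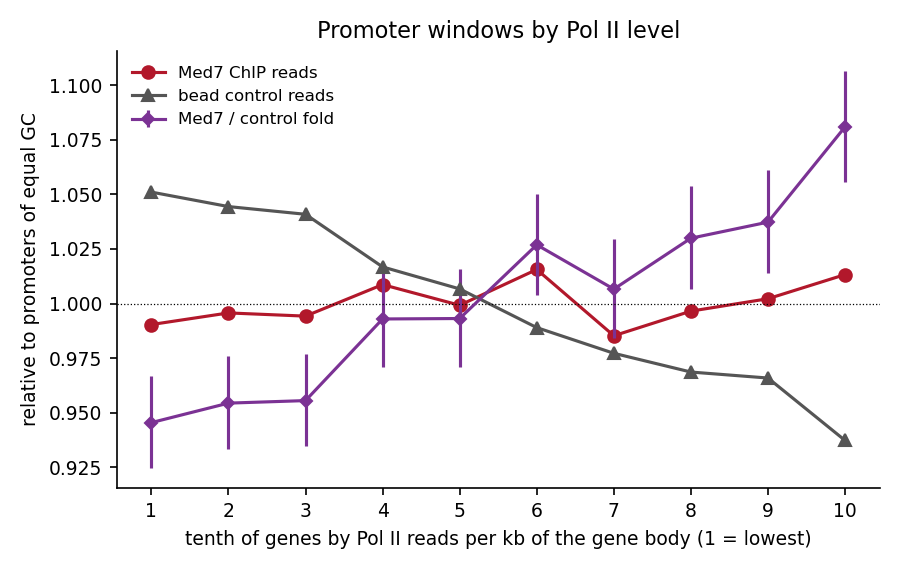
Promoter windows by deciles of genes ordered by Pol II reads per kb of the gene body (x axis, 1 is the lowest), with Med7 ChIP reads, bead control reads and the Med7 to control fold (y axis, each relative to promoters of equal GC, fold with 95% counting intervals). The fold goes from 0.946 to 1.08 while the control reads go from 1.05 to 0.937 and the Med7 reads stay between 0.985 and 1.02; the y axis does not start at 0.

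The layout of neighbouring genes went with a smaller difference. The 2666 windows whose nearest upstream transcript lies on the other strand, the divergent ones, stood at 1.03 (1.02 to 1.04) at equal GC, with 102 high, and the 2278 tandem ones at 0.971 (0.961 to 0.981), with 54 high. Over all 4944 windows 156 (3.16%) were high. Control reads were 0.969 times the class mean in divergent and 1.04 times in tandem windows, and Med7 reads 0.994 and 1.01 times. Divergent starts between 250 and 500 bp apart had the highest value of these distance classes, 1.11 (1.08 to 1.14) over 313 windows with 23 high. Those up to 100 bp apart were at 0.940 (0.908 to 0.972), and tandem windows up to 100 bp from the upstream gene at 0.925 (0.896 to 0.955). In such short spacings the window reaches into the neighbouring transcript. Windows of divergent genes with starts up to 500 bp apart cover much of the same DNA, so shared reads count in the window of each. The intervals of these classes and of all divergent windows are thus too narrow even for counting error. Other pooled values over promoters in this report also include overlapping windows, so their intervals are too narrow to a degree that was not measured. A shared stretch can also give each gene a high call. Among windows overlapping no other promoter window, divergent stood at 1.05 (1.03 to 1.07) times tandem, against 1.06 (1.04 to 1.07) over all windows. Genes with an annotated leader over 400 bp stood at 1.08 (1.06 to 1.11) over 446 windows, and genes with no annotated base before the coding sequence at 0.905 (0.885 to 0.925) over 503.

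Promoter elements searched as letters on both strands of the 600 bp windows went with small differences, and of all windows 3.16% were high. HomolD, CAGTCACA, was in 154 windows (3.11%), which stood at 1.02 (0.976 to 1.06) at equal GC with 2 high. TATAAA was in 3657 windows (74.0%), at 0.999 (0.991 to 1.01). The CRE TGACGTCA was in 19 windows (0.384%), at 1.15 (1.02 to 1.30), with 2 high, and the shorter TGACGT, which includes every full CRE, in 448 (9.06%), at 1.03 (1.01 to 1.06). A sterol element pattern, of the kind that Sre1 binds, was in 449 windows (9.08%), at 1.07 (1.04 to 1.09), with 27 high. The other patterns lay between 0.967, for the forkhead element GTAAACAAA in 456 windows (9.22%), and 1.01, for the GATA element TGATAA in 2359 windows (47.7%). A match is a description of letters, not a site.

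Among the gene lists, set beside a median log2 fold at equal GC of 0.0042 and 156 high and 80 low of all 4944 promoters, the genes of sterol synthesis and of its regulator Sre1 held 5 high windows. Of the 25 measured none was low, the median log2 fold was 0.24 and the pooled fold at equal GC 1.17 (1.05 to 1.30). Sre1 is the fission yeast SREBP, a membrane-bound factor released when sterols or oxygen are short, and scp1 encodes its sterol-sensing partner. ofd1 is given above. erg11, for sterol 14-demethylase, had 30 Med7 reads and 10 control reads, at 2.28 (1.08 to 5.22). erg31, for a sterol C-5 desaturase, had 33 and 11 such reads, at 2.27 (1.12 to 4.97), and scp1 43 and 14, at 2.04 (1.09 to 4.04). The fifth, erg10, holds an LTR. At the lower end dsc3, for a subunit of the ubiquitin ligase needed for the processing of Sre1, had 29 Med7 reads and 35 control reads, at 0.55 (0.32 to 0.93), and erg7 stood at 0.64 (0.41 to 1.01). The pooled fold was 1.08 (0.906 to 1.29) in a shorter window, 250 bp upstream to 50 bp downstream, and 1.05 (0.899 to 1.23) on plus strand reads and 1.09 (0.972 to 1.23) with at least 50 reads per window, so that these intervals include 1. Over the 25 windows Med7 reads were 1.00 times their class means and control reads 0.846 times.

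Amino acid transport and fermentation followed, where 3.16% of all promoters were high. Of the 10 genes matched by the permease list, aat1 and put4, for a proline transporter (43 Med7 reads, 14 control reads, 2.17, 1.17 to 4.30), were high, with a median log2 fold of 0.36 and a pooled fold at equal GC of 1.41 (1.19 to 1.67). In that list 2 members matched through older names, ape4 for an aminopeptidase and any1 for an arrestin-related adaptor, are not permeases and stood lowest, at 0.91 and 0.97. In the shorter window put4 stood at 1.07 (0.48 to 2.51) and the list at 1.16, with an interval that includes 1. In glycolysis and fermentation 4 of 20 were high, namely pdc101, adh4 (52 Med7 reads, 15 control reads, 2.30, 1.28 to 4.40), pgk1 (28 and 10, 2.23, 1.05 to 5.16) and gpm1 (29 and 11, 2.10, 1.02 to 4.67). The list's median log2 fold was 0.17 and its pooled fold 1.16 (1.03 to 1.32), and eno102 was lowest at 0.57 (0.35 to 0.95). The list's interval included 1 in the shorter window, at 1.08 (0.907 to 1.29), on either strand alone, with at least 50 reads and without overlapping windows. Its Med7 reads were 1.06 times and its control reads 0.900 times their class means. Among 22 chaperone genes, ssa2 (56 Med7 reads, 19 control reads, 2.23, 1.30 to 3.97) and cct6, with an LTR, were high. In the stress response list the factor gene atf1, whose CRE is shown above, was the single high window of 19, with 62 Med7 reads and 17 control reads, at 2.58 (1.49 to 4.71).

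Of the 34 lists, phosphate and thiamine genes had the lowest pooled fold. The counts below stand beside 156 high (3.16%) and 80 low (1.62%) of all 4944 promoters. They had 2 of 12 low and none high, a median log2 fold of -0.33 and a pooled fold of 0.793 (0.690 to 0.911). tgp1 is given above, and the acid phosphatase gene pho1 had 31 Med7 reads and 48 control reads, at 0.49 (0.30 to 0.79). Med7 reads of the list were 0.988 times and control reads 1.27 times their class means. Heterochromatin and RNA interference genes had none of 21 high or low, with a median of -0.30 and a pooled fold of 0.878 (0.789 to 0.978). On plus strand reads alone it was 0.922 (0.789 to 1.08). Respiratory chain genes had 2 high of 54, qcr6 and qcr9, which is near the share of all promoters, and 4 low, cyt1, cox5, sdh6 and atp10. In the CENP-A and kinetochore list 2 of 24 were low, mis18 (22 Med7 reads, 34 control reads, 0.46, 0.26 to 0.81) and mis19, and in the mating list 2 of 30, the pheromone gene map2 (22 and 36, 0.43, 0.24 to 0.76) and sxa2.

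Of Mediator's 21 own genes none was high or low, where 3.16% and 1.62% of all promoters were, which at this number is near the background. The median log2 fold was 0.06 and the pooled fold 0.993 (0.892 to 1.11). srb6 was highest, with 51 Med7 reads and 22 control reads, at 1.64 (0.98 to 2.84). srb11, for the cyclin of the kinase module, was lowest, with 21 Med7 reads and 29 control reads, at 0.51 (0.28 to 0.93). Ribosomal protein genes, the most strongly transcribed group of many yeasts, had 2 high of 55 for the small subunit, rps801 and rps1401 (60 Med7 reads, 19 control reads, 2.10, 1.23 to 3.72), and none of 78 for the large one. Their pooled folds were 1.07 (0.999 to 1.15) and 1.01 (0.953 to 1.07). rps1602 was low, with 13 Med7 reads and 27 control reads, at 0.38 (0.18 to 0.77), and so was rpl1602 of the large subunit, with 19 Med7 reads and 30 control reads, at 0.45 (0.24 to 0.82). In the cell cycle list 3 of 20 were high, the securin gene cut2 (70 Med7 reads, 20 control reads, 2.24, 1.35 to 3.90), pch1 and puc1. The strands differed in cut2, at 1.28 on plus and 4.03 on minus strand reads, and in pch1, at 4.23 and 1.17.

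**Figure D5:**
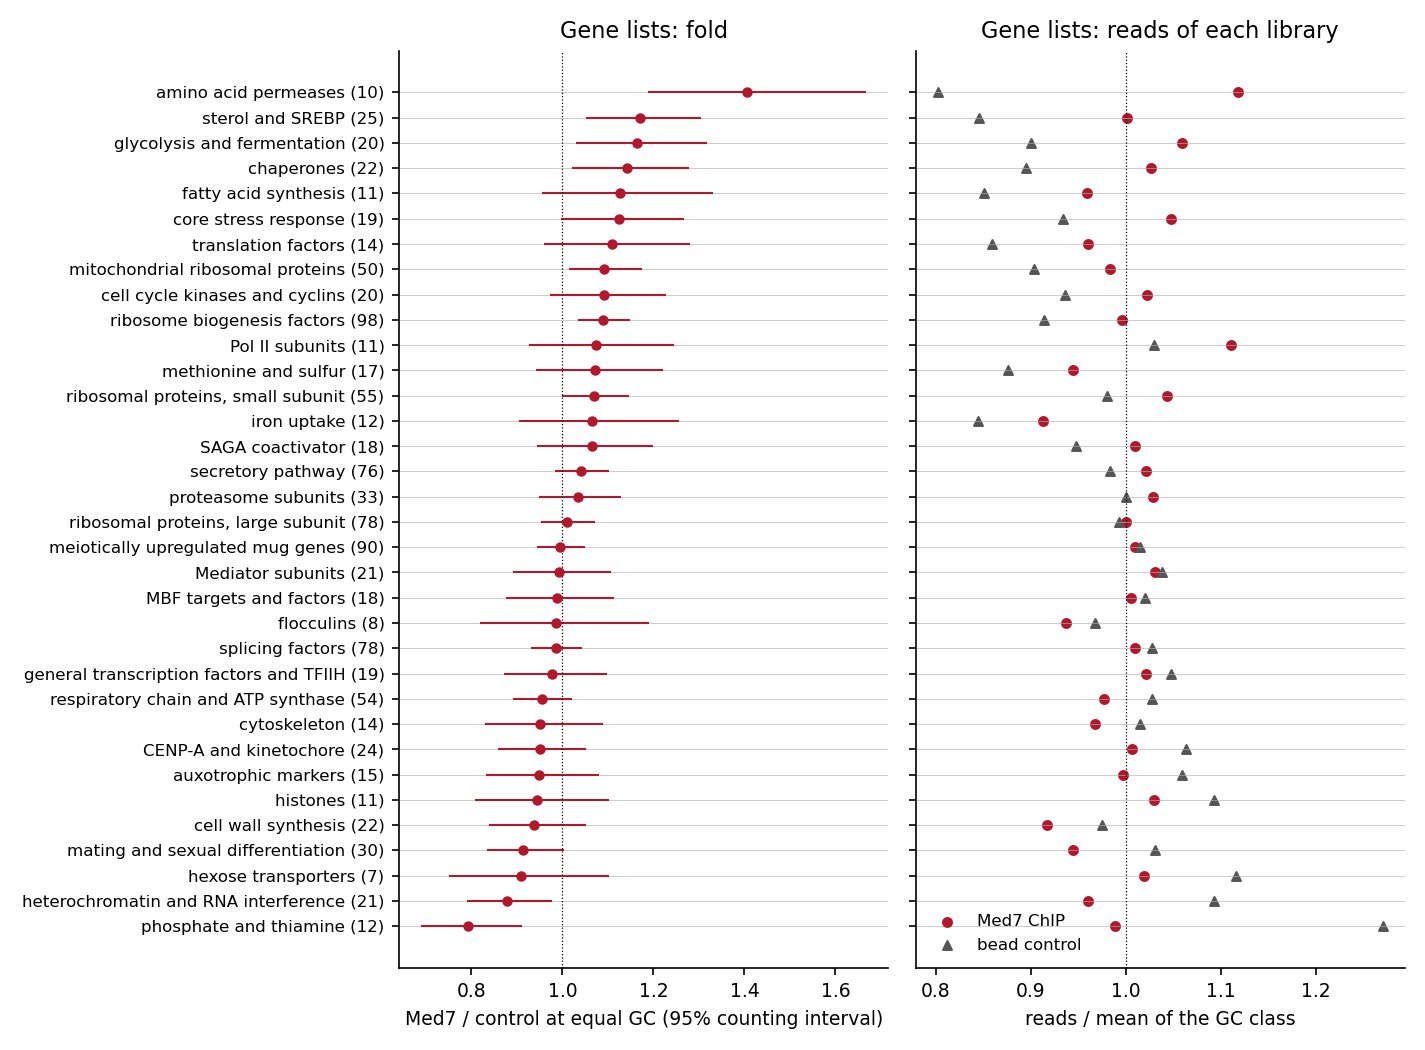
For 34 gene lists with their number of measured promoters, the pooled Med7 to control fold at equal GC with its 95% counting interval (left x axis) and the Med7 ChIP and bead control reads relative to the mean of the GC class (right x axis); neither x axis starts at 0. Folds run from 1.41 for amino acid permeases at the top to 0.793 for phosphate and thiamine genes at the bottom, and control reads span a wider range, 0.802 to 1.27, than Med7 reads, 0.913 to 1.12. The fatty acid synthesis list also holds the securin gene cut2, which counts in the cell cycle list as well.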

How the data were processed

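The Med7 ChIP, Pol II ChIP and bead control libraries of 1 sample each were analysed. For each library the authors deposited read positions, 1 line for every aligned read, without header or normalisation, and their score column was 0 throughout. Bowtie 0.12.7 is named, per the submitters' processing notes, without its step; the genome build is not given in the sources used here. Of the nuclear reads, 99.1 to 99.2% spanned 45 bases, and 0 of these began at a 45-base sequence found more than once in ASM294v3, so the reads were taken as uniquely placed on that build, with 1-based starts. Reads were counted at their 5′ end moved 77 bp, from a fragment length of 155 bp at the maximum of the smoothed Pol II strand cross-correlation (0.0645). The same shift was used for all libraries, and no fragment length of Med7 or the control is given here. Duplicates (16.4% of nuclear reads in Med7, 17.0% in Pol II, 12.9% in the control) were kept.

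Computed here: RPM over nuclear reads outside the ribosomal DNA, and the ratio or fold of Med7 to control with the exact conditional binomial (Clopper-Pearson) 95% interval. The fold at equal GC is the fold divided by the pooled fold of all measured promoters in its class of 2 GC points (at least 50 windows). Log2 folds used a pseudocount of 0.5 reads. Named genes are the 15 highest by lower bound, the 10 lowest by upper bound, the 5 that lose and the 5 that keep most under the division, the 2 highest and 2 lowest of each list, and the Mediator genes. Other high or low windows of a list, the genes with LTRs and the LTR grouping were chosen after their values were seen. The members and lists were chosen with earlier results of these data known. The alternatives tried are window, scaling, strand, duplicates, filters and GC classes. Computations used numpy 2.4.6 and pandas 2.3.3 under Python 3.11.15, with intervals from scipy 1.17.1 and plots from matplotlib 3.10.9.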

Additional observations from a re-analysis of the deposited data

Results flagged for a closer look

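Mitochondrial reads, which no comparison above uses, made up 23.8% of all Med7 reads, 7.73% of Pol II reads and 6.84% of bead control reads. This is a larger share of reads than in the control, outside the promoter windows, and no fold at equal GC was computed for it. RPM values were taken over nuclear reads and do not include them. The cause was not tested.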

How the results depend on the processing

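Each value rests on 1 library per group, and a median promoter held 25 control reads, which limits single folds. No paired analysis was possible because no group has a second library, and for the same reason no replicate could be left out. The fold of promoters over coding windows ranged from 1.34 to 1.49 over 15 alternatives and that over transcript ends from 1.21 to 1.36. Med7 reads alone stayed at 1.02 to 1.06 and 0.970 to 0.989 times, and control reads alone at 0.710 to 0.783 and 0.729 to 0.808 times. With promoters set against the coding level, heterochromatin genes stood at 1.21 and phosphate and thiamine genes at 1.11, above 1, where both lists lay below the average promoter; no other called value of the report turned round under the alternatives run. With windows from 250 bp before to 50 bp after the start, 38 were low by raw fold and 213 at equal GC, promoters stood at 1.49 over coding windows and 1.36 over ends, the highest over the lowest Pol II decile at 1.23 (1.14 in the report's setting), divergent over tandem at 1.03 (1.06), and LTR windows at 1.48 with 8 high. Collapsing duplicates left 50 low at equal GC and 14 high LTR windows, and reads not moved left 15 of the latter. On plus strand reads alone, of windows with at least 20 such reads (the strand check of the report has no such minimum), 33 and 200 were low, raw and at equal GC, and 12 LTR windows high. On the minus strand these were 22, 132 and 13. A minimum of 50 reads left 7 low by raw fold, and fully unique windows left 15 high LTR windows. Windows that overlap no other promoter window gave 436 high by raw fold, 99 high and 53 low at equal GC, 1.21 over ends, 1.19 over Pol II deciles and 13 high LTR windows, from fewer windows. GC classes of 4 points gave 1.41 over coding windows. With the class level taken from coding windows, which sets promoters against coding sequence, 735 were high and 5 low, and LTR windows stood at 1.89 with 41 high. Without LTR windows, an alternative chosen after seeing the data, 135 were high and 77 low at equal GC. Beyond the fewer reads or windows that an alternative leaves, the cause of these shifts was not tested. Of 1321 values of 83 genes named in the report 1298 stayed within the interval given, and of 578 values of lists 526 did, with 34 of the 52 others under the coding level. Intervals of single genes are wide and the alternatives reuse the same reads, so staying inside does not mean that a call was kept. Inside its interval scp1 went down to 1.14, qcr6 to 1.21 and sec67 to 1.20, while aat1 stayed at 3.03 or more. Of the genes outside their interval, dre2 stood at 11.3, pho1 at 0.237, ssa2 at 4.84 and cox5 at 0.81 in the shorter window. Some high windows left their interval on single strands. cut2 stood at 1.28 (0.64 to 2.72) on plus and 4.03 (1.80 to 10.6) on minus strand reads. ddx27 stood at 1.15 and 4.01 and pch1 at 4.23 and 1.17. On plus strand reads mug51 stood at 1.24 and sec66 at 8.59, and on minus strand reads atf1 stood at 4.97.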

Other observations

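Some windows outside the protein-coding set were counted in the same way. The 34 measured windows at tRNA genes, which RNA polymerase III transcribes, had a fold at equal GC of 0.827 (0.765 to 0.895), with Med7 reads at 1.10 times and control reads at 1.32 times the mean of protein-coding promoters of their GC. The 5 at rRNA genes stood at 1.32 (1.06 to 1.66), the 13 at snoRNA genes at 0.994 and the 3802 at lncRNA genes at 1.01. Of protein-coding promoters, the 131 within 100000 bp of a chromosome end stood at 0.954 (0.913 to 0.997), with 3 high and 7 low, where 153 of the 4813 elsewhere were high and 73 low.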
